A study of Rattus norvegicus with 12 samples.

Results

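The probes described here were those whose hybridization ratio was lowered in liver by growth hormone (GH), given alone or with 17β-estradiol (E2), while E2 alone left the mean ratio near that of the controls. They were chosen from the deposited table of log2 ratios, where a value below 0 means less signal than from the control RNA on the same array. A probe had to have 3 or more values in each treatment group, a mean of -0.58 or lower in each of the 2 groups given GH, and a mean between -0.3 and 0.3 after E2. The table held 22163 probes. Enough values were present for 11478 of these, and 39 met the rule. The rule used every array, so the ratios of these 39 probes are given as a description, and no test of them is read as evidence that they responded.

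Liver RNA of adult male Sprague-Dawley rats was compared on 12 two-colour arrays, 4 per treatment, each with one treated animal. All groups, controls included, were hypothyroid and orchidectomized (TXOX) and 3 months old. Methimazole, which blocks thyroid hormone synthesis, was given at 0.05% in the drinking water for 5 weeks, from postnatal day 59 to day 94. The TXOXE2 group received E2 benzoate, an injected ester of E2, at 50 µg/kg on 5 days per week for 27 days. The TXOXGH group received GH at 0.3 mg/kg per day during the last 7 days, after 20 days of vehicle, and the TXOXE2GH group received both hormones. TXOX rats given vehicle were the reference on every array. Treated RNA carried Cy5 and TXOX RNA Cy3 on all 12 arrays, so a preference of a probe for one dye and a change against TXOX cannot be told apart. It cancels when 2 treatments are compared with each other.

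GH acts on hepatocytes through its receptor, the kinase JAK2 and the transcription factor STAT5, which raises genes such as Igf1 and lowers others, many of them sex-dependent in rodents. E2 acts in liver through estrogen receptors and also through the pituitary, where it changes GH secretion. Thyroid and gonadal hormones act on many of the same genes. Probes lowered by GH with or without E2 bear on the question of which GH effects E2 leaves unaltered. Their choice by low means in both groups does not itself show that E2 left them unaltered.

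The files identify a probe by its name and its place on the slide, and no table at hand pairs these names with genes. The 39 probes are therefore given by probe name, without gene, function, position in the genome or sequence. The label of the tissue could not be checked against hepatocyte markers for the same reason. In RNA from whole liver, fewer cells of a type and less RNA per cell cannot be told apart.

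Across the series, 19130 to 22346 of 27094 probe spots were unflagged by the scanner software on an array. The median ratio of the 11478 eligible probes lay between -0.014 and 0.115 on each array. The 39 probes were brighter than most, with a median log2 brightness of 9.90 (range 8.00 to 13.17) against 8.72 for the eligible probes. In both channels 26 of 39 (66.7%) stood above local background on all 12 arrays, compared with 33.6% of eligible probes. Rn30008035 and Rn30010463 were the 2 with any saturated pixel, on 2 arrays each.

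The lowering after GH was of moderate size. Group means of the 39 probes ran from -1.43 to -0.58 in TXOXGH (median -0.76) and from -1.42 to -0.58 in TXOXE2GH (median -0.79). A mean of -1 or lower was reached by 7 probes after GH, by 9 after E2 plus GH and by 2 after both. The probes lay closer to zero after E2, between -0.29 and 0.19 with a median of -0.08, and 28 of the 39 had a negative mean.

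Single arrays were less uniform than these means. The median of the 39 probes was -0.89, -0.82, -0.85 and -0.66 on TXOXGH arrays 1 to 4. It was -1.10, -1.01, -0.70 and -0.59 on the TXOXE2GH arrays. On the TXOXE2 arrays it was -0.19, 0.09, 0.02 and -0.35. The near-zero E2 mean thus combined arrays 2 and 3, where the median was just above zero, with arrays 1 and 4, where it was below. Over all eligible probes the median was 0.115 on E2 array 2 and 0.014 on E2 array 3, so the 39 did not stand clearly above other probes there. Of the 39 probes, 34 had E2 values of both signs and 16 fell to -0.58 or lower on at least 1 TXOXE2 array. The rule required an E2 mean near zero, which favours values of both signs. The shares of eligible probes are not given here, so nothing is read from these counts.

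Replicate spread was wide for these probes. The median SD over arrays was 0.38 in TXOXE2, 0.32 in TXOXGH and 0.44 in TXOXE2GH, whereas over all eligible probes it was 0.20, 0.19 and 0.22. Every measured GH array was below zero for 35 of the 39 probes, where 17.9% of eligible probes had this, and every E2GH array for 35, where 17.3% did. All GH arrays lay below all E2 arrays for 16 probes (5.85% of eligible probes), and all E2GH arrays below all E2 arrays for 12 (5.86%). For 8 probes both held, compared with 2.19% of eligible probes. The rule chose for low GH and E2GH means, so nothing is read from these shares.

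Rn30017930 had the lowest mean over both GH-treated groups. Its log2 ratio was -1.92, -1.29, -1.32 and -1.19 on the GH arrays, -1.16, -1.40, -0.83 and -1.65 on the E2GH arrays, and -0.50, -0.34, -0.04 and -0.06 on the E2 arrays. All 8 GH-treated arrays were lower than the 4 E2 arrays. The means were -1.43 ± 0.33, -1.26 ± 0.35 and -0.24 ± 0.22 (SD, n = 4 each).

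Rn30001817 and R002853_01 varied little after E2 and were clearly separated. Rn30001817 read -0.05, -0.02, 0.10 and -0.11 after E2, -0.90, -1.36, -0.69 and -0.71 after GH, and -1.23, -1.01, -0.78 and -0.80 after both hormones. R002853_01 read 0.10, -0.04, -0.16 and -0.06 after E2, -0.76, -0.62, -0.89 and -0.74 after GH, and -0.87, -0.67, -1.14 and -0.51 after both hormones. In neither probe did a GH-treated array reach the range of the E2 arrays. R002402_01 had the smallest spread after GH of the 39 probes, at -0.74 ± 0.07 after GH, -0.68 ± 0.20 after E2 plus GH and -0.12 ± 0.09 after E2 (SD, n = 4 each). Its GH-treated arrays were all below its E2 arrays too.

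Other strongly lowered probes varied widely between arrays. Rn30001110 read -1.27, -1.65, -1.77 and -0.22 after GH, -2.04, -1.65, -1.38 and -0.60 after E2 plus GH, and -0.65, 0.86, 0.27 and -0.70 after E2. Replicate 4 of both GH-treated groups overlapped the E2 arrays. Rn30008035, the brightest of the 39 and with some pixel saturation on 2 arrays, read -1.54, -1.58, -0.63 and -1.42 after GH, -1.12, -1.40, -0.26 and -0.81 after E2 plus GH, and 0.40, 0.62, 0.02 and -1.18 after E2. Its E2 array 4 was as low as the GH-treated arrays. R000157_01, with -0.84 ± 0.41 after GH and -1.28 ± 0.38 after E2 plus GH, likewise had an E2 value of -1.24 on array 4 against 0.38 on array 2.

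Rn30004326 was one of the probes with a lower mean after GH alone than after GH with E2. It read -0.72, -1.12, -1.43 and -1.20 after GH, -0.98, -0.58, -1.03 and -0.57 after E2 plus GH, and -0.10, -0.30, -0.33 and 0.01 after E2. Both GH-treated groups were below all E2 arrays but overlapped each other. It was dim, and stood above local background in both channels on only 4 of 12 arrays. Rn30002341 read -1.04 ± 0.43 after GH and -0.73 ± 0.85 after E2 plus GH, with 1 E2GH array at 0.51. R000823_01 read -0.86 ± 0.18 after GH, -0.91 ± 0.44 after E2 plus GH and -0.19 ± 0.20 after E2. Rn30012829 and Rn30026385 completed the 15 lowest probes with all 12 values, with GH means of -0.64 and -0.92 and E2GH means of -1.004 and -0.71. Of the 39, 2 lacked 1 value each. Rn30010463, next to Rn30008035 in brightness and also with some pixel saturation on 2 arrays, read -0.94, -1.43 and -0.83 on its 3 GH arrays, -0.99, -1.08, -0.82 and -0.72 after E2 plus GH, and 0.24, 0.50, 0.20 and -0.74 after E2. Only E2 array 4 reached the GH-treated range.

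In some members 1 or 2 arrays were far lower than the others. R003573_01, a bright probe, read -1.38, -0.68, -0.46 and -0.29 after GH, -2.07, -1.05, -0.22 and -0.09 after E2 plus GH, and -0.16, 0.00, 0.11 and -0.58 after E2. Rn30026385 read -0.05, -0.81, -2.04 and -0.79 after GH, 0.45, -0.86, -1.22 and -1.24 after E2 plus GH, and 0.30, 0.01, -0.06 and -0.56 after E2. Rn30023091 read -0.07, -0.20, -1.84 and -0.74 after GH, -1.02, -0.06, -0.37 and -1.49 after E2 plus GH, and 0.38, -0.62, -0.54 and 0.82 after E2. In all 3 probes the GH-treated and E2 arrays overlapped, and the low arrays were replicate 1 in the first, 3 in GH of the second, and GH 3 and E2GH 4 in the last. By contrast R005198_01 read -0.80, -0.98, -1.14 and -0.93 after GH, below all its E2 values of -0.08, -0.64, -0.02 and -0.25, while its E2GH values of -1.02, -0.22, -1.07 and -0.34 overlapped them.

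The limits cut through a continuous range. Just inside the GH limit lay Rn30000361 (-0.582) and Rn30011480 (-0.585), and just outside it Rn30018256 (-0.563) and Rn30017494 (-0.556). At the E2GH limit Rn30016239 (-0.584) and Rn30015653 (-0.627) were members, whereas Rn30014952 (-0.579) and Rn30023115 (-0.578) were not. At the E2 limit Rn30011457 and R000157_01 (-0.288 both) were members, whereas R004431_01 (-0.314) and R004541_01 (0.323) were not. Probes lowered to -0.58 or below in both GH-treated groups numbered 94, of which 53 had an E2 mean of -0.3 or lower, 39 were members and 2 had an E2 mean of 0.3 or higher.

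The ratios were also remade from the scanner intensities and compared with TXOX in a linear model over all probes (limma). A probe was called changed when its Benjamini-Hochberg adjusted p was under 0.05 and its mean lay 0.58 or more from TXOX on the log2 scale. GH lowered 31 of the 39 probes by this measure, beside 1.33% of all probes tested, and E2 plus GH lowered 35, beside 2.21%. None was called higher, beside 2.08% and 1.59% of all probes, and 28 were called lower in both groups. One, Rn30023091, was called in neither. The median log2 difference from TXOX was -0.87 in both groups, with a median SE of 0.18. These comparisons used the arrays that chose the probes and therefore add nothing to the rule.

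Against TXOX, E2 alone gave a call for 0 of the 39 probes (limma), beside 6.23% of all probes in either direction. At an unadjusted p under 0.05 (limma), 2 of them were lower and none higher, beside 6486 of all 19289 probes in either direction. The rule required an E2 mean near zero, so nothing is read from this difference. One of these, Rn30011457, was lower by a log2 difference of -0.39 ± 0.12 (SE) at an adjusted p of 0.0339 (limma), short of the fold limit. The 95% interval of the E2 effect extended a median of 0.38 to each side. It lay within -0.58 and 0.58 for 24 probes, reached -0.58 or lower for 10 and reached 0.58 or higher for 5. For those 15 probes an E2 effect of the size required of GH was within the interval.

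The direct comparison with E2 asks whether the GH-treated livers differed from the E2-treated ones, and here the dye cancels. All 39 probes were lower after GH than after E2, by a median log2 difference of -0.78 with a median SE of 0.25. After adjustment over all probes (limma), 7 were called lower, beside 0.413% of all probes. Before adjustment 28 of the 39 had a p under 0.05, beside 2370 of all 18879 probes in either direction. After E2 plus GH the median difference from E2 was -0.79, and 4 probes were called lower, beside 0.295%. Before adjustment 30 of the 39 had a p under 0.05, beside 2749 of all 17937 probes in either direction. Neither comparison gave a call for the other 32 probes. With the replicate number as a block over 12 arrays the counts were 10 after GH, beside 0.636% of all probes, and 10 after E2 plus GH, beside 0.569%, and 6 of those 32 were called in one comparison or both. This block also ties the E2 arrays to the others by number, and the data gave no such pairing by number. Deviations of E2 arrays from their group mean correlated with same-numbered arrays by -0.17 to 0.21 for GH and -0.15 to 0.11 for E2GH. With arrays of other numbers the ranges were -0.29 to 0.35 for GH and -0.26 to 0.30 for E2GH. Some E2 arrays thus deviated together with GH-treated arrays of another number, which neither fit took into account. The counts with the block are therefore given only as an alternative. The remaining 26 probes were called in neither fit. A missing call does not show an equal response to GH and to E2. In the fit without the block, the intervals of all 39 probes reached -0.58 or lower in both comparisons.

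The 4 probes called lower than E2 in both were Rn30017930, Rn30001817, R002853_01 and Rn30017954. For Rn30001817 the log2 difference from E2 was -0.91 ± 0.16 (SE) after GH and -0.97 ± 0.16 after E2 plus GH, with adjusted p-values of 0.00883 and 0.00948 (limma). For R002853_01 it was -0.83 ± 0.16 and -0.86 ± 0.16, with adjusted p-values of 0.0138 and 0.0164 (limma). Rn30004326 had the lowest adjusted p of the 39 after GH, 0.0031 (limma), at a difference of -1.26 ± 0.20, and was not called after E2 plus GH (adjusted p = 0.0818). It stood above local background on only 4 of 12 arrays, so the size of its difference rests largely on spots near background. Rn30010463 and R002402_01 were the other 2 called after GH. The rule chose all of them for low ratios after GH with E2 near zero, so the calls describe which members were separated best in this fit. With loess within each printed block, 6 of the 7 calls after GH and 2 of the 4 after E2 plus GH were kept. With ratios relative to the median of surrounding spots, an alternative chosen after seeing the data, 5 of the 7 and 1 of the 4 were kept.

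The GH and E2GH means of the 39 probes lay on both sides of each other. Both means had to be -0.58 or lower for a probe to be chosen, so probes that E2 moved far from the GH value could be left out, and nothing is read from the balance. The mean of the deposited ratios was lower after E2 plus GH than after GH for 24 probes and higher for 15, with a median difference of -0.02 (range -0.46 to 0.39). In the remade ratios no probe was called different between the groups (0 of 39, limma), beside 0% of all probes. One, Rn30004326, had an unadjusted p under 0.05 (limma), with a log2 difference of 0.49 ± 0.20 (SE). Of all 18695 probes tested, 1111 had such a p. The 95% interval lay within -0.58 and 0.58 for 12 of the 39, so a difference of that size was not excluded for the other 27.

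Deviations of same-numbered GH and E2GH arrays from their group means correlated in all 4 pairs, and the numbers were taken to pair them. With the number as a block on these 8 arrays, the median SE fell to 0.15 and the interval lay within the same limits for 21 probes. In that fit 0 of 39 were called, beside 0.401% of all probes. An unadjusted p under 0.05 was reached by 11 of the 39, and the share of all probes at that p is not given here. Because of this pairing, low values in both groups on arrays of one number are not separate observations. The departure of the combined effect from the sum of the single effects was called for 0 of 39 (limma), beside 0.896% of all probes. Of the 39, 2 had an unadjusted p under 0.05, beside 3577 of all 17858 probes. The interval of the departure extended a median of 0.66 to each side, more than the fold limit.

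The rule was also applied to 3 arrays per group, and the probes so chosen were read on the arrays of the replicate number left out. Without number 1, 2, 3 and 4 the rule chose 38, 29, 42 and 56 probes, of which 25, 24, 25 and 30 were among the 39. Their median on the left-out GH array was -0.74, -0.69, -0.51 and -0.54, and on the left-out E2GH array -0.91, -0.74, -0.36 and -0.42. The medians on GH and E2GH arrays that had no part in the choice were thus negative again, and smaller in size on numbers 3 and 4 than on 1 and 2. All arrays had the same layout and the same use of the dyes. A GH effect and an effect of place or dye can therefore not be told apart by this reading. The GH and E2GH arrays left out together share a number and are not separate observations. On the left-out E2 array the median was -0.11, -0.04, 0.03 and -0.38.

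All 3 limits were met again on the left-out arrays by 8 of 38, 10 of 29, 6 of 42 and 4 of 55 probes measured there, or 21.1%, 34.5%, 14.3% and 7.27%. Among all probes eligible in these rounds the shares were 0.803%, 1.59%, 0.637% and 0.446%. Most probes chosen on 3 arrays did not repeat the full pattern on the remaining one. The weakest round left out number 4 of all groups. There the GH limit was met by 25 of 56 chosen probes, the E2GH limit by 19 of 55 and the E2 limits by 22 of 56. On E2 array 4, 17 of the 56 lay at -0.58 or lower. Whether arrays shared a TXOX animal is not stated in the labels or methods.

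The places of the 39 probes on the slide were also read, and their spread over the blocks was not tested against that of the eligible probes. The 39 lay in 24 of the 48 printed blocks, with 6 in block 1 and 4 in block 15, where 257 and 210 probes were eligible. Of the 39, 9 sat in 3 runs of neighbouring spots in the same printed row, 1 of 4 spots, 1 of 3 and 1 of 2. In each run the first spot was the brightest.

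In block 1, row 17, the run held Rn30019303, Rn30019327, Rn30019351 and Rn30019375 in columns 21 to 24. Rn30019303 read -1.22, -1.08, -0.64 and -0.62 after GH, -1.49, -1.86, -0.54 and -0.93 after E2 plus GH, and -0.39, 0.34, 0.11 and -0.62 after E2. The last of the run, Rn30019375, read -1.02, -0.87, -0.43 and -0.56, then -1.27, -1.39, -0.33 and -0.28, then -0.37, 0.20, 0.10 and -0.34. The different probes followed the same order of arrays, with GH arrays 1 and 2 lower than 3 and 4 and E2 arrays 1 and 4 below zero. The spot before the run had a brightness of 6.87 and a GH ratio of 0.50, and brightness then stepped to 11.62, 9.90, 9.89 and 9.79.

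In block 15, row 24, the run held Rn30026821, Rn30026845 and Rn30026869 in columns 14 to 16. Rn30026821 read 1.21, -0.02, -0.80 and 0.08 after E2, -0.69, 0.21, -1.25 and -1.99 after GH, and -0.90, -1.02, -1.22 and -2.42 after both hormones. Rn30026869 read 0.96, -0.14, -0.71 and 0.16 after E2, -0.62, 0.30, -1.06 and -1.60 after GH, and -0.68, -0.38, -1.04 and -2.02 after both hormones. The neighbouring probes thus rose and fell together on single arrays, including high values on E2 array 1 and low values on array 4 of both GH-treated groups.

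The next spot in that row, in column 17, was a control probe named Alien_09. Its remade ratio was 0.99, -0.14, -0.998 and 0.05 on the E2 arrays, -0.47, 0.39, -1.002 and -1.82 on the GH arrays, and -0.33, -0.30, -0.74 and -1.67 on the E2GH arrays, an array order like that of the 3 members before it. Its means were -0.02, -0.73 and -0.76. The same control was printed in 10 other places, and its mean there was 0.03 to 0.50 after GH in 8 measured places and -0.15 to 0.40 after E2 plus GH in 7. At this place in the row the control spot was lowered although its other copies were not. The part that the place on the slide had in the ratios of the members before it was not tested.

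Similar slopes followed single members. Rn30019299, in block 17, had remade ratios of -0.93 after GH and -1.04 after E2 plus GH. The next 3 probes in the row, which were not members, read -0.54, -0.51 and -0.44 in TXOXGH and -0.68, -0.57 and -0.44 in TXOXE2GH, while brightness fell from 11.27 to 10.70, 9.32 and 8.23. Rn30023091, with a brightness of 12.58, was followed by Rn30023115, the probe just outside the E2GH limit, and by 2 more probes, which read -0.73, -0.71 and -0.58 in TXOXGH and -0.61, -0.45 and -0.36 in TXOXE2GH. The spot after these was listed as empty and read -0.42 after GH and -0.13 after E2 plus GH. Rn30001817 lay between probes at -0.55 before it and -0.88 after it in the GH group, and at -0.55 and -0.74 in the E2GH group.

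For other members the next spots were near zero. Rn30001110 (remade -1.32 and -1.57) was followed by Rn30001134 at -0.10 and -0.31 and by probes between -0.20 and -0.06. Over the 21 measured probes that followed a member and were not members themselves, the median was 0.01 after E2, -0.32 after GH and -0.29 after E2 plus GH, and 17 (81.0%) were below zero in both GH-treated groups, compared with 37.3% of all probe spots. The 14 measured in the column before had medians of -0.16, -0.22 and -0.30, whereas the 20 measured in the row above had -0.13, 0.00 and 0.01, and the 26 measured in the row below -0.06, -0.15 and -0.04. In these medians the low E2GH ratios extended along the printed row and were near 0 above and below it.

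The probes that met the rule depended on how the ratios were remade. Without background correction 41 probes met it, among them all 39. Remaking with background correction, and without one for the place on the slide, gave 59 probes, of which 34 were among the 39. With each remade ratio taken relative to the median of the surrounding 7 by 7 spots, an alternative chosen after seeing the data, 48 probes met it, of which 23 were among the 39. With remade ratios and loess within each printed block 42 met it, of which 18 were. Over 5 ways of remaking the ratios from the scanner intensities, 12 of the 39 met the rule each time, and 11 of the 39 met it on the deposited ratios whichever array was left out. Both held for 5 probes, Rn30019303, Rn30019299, R002853_01, Rn30017954 and Rn30007721. Of these, Rn30019303 opens the run in block 1, Rn30017954 follows Rn30017930 in block 34, and Rn30019299 opens the slope in block 17. R002853_01 and Rn30007721 were not in a run of members. Rn30007721 read -0.39, -0.82, -0.92 and -1.06 after GH, -0.57, -1.02, -0.84 and -0.42 after E2 plus GH, and 0.09, -0.10, -0.26 and -0.35 after E2, without overlap between the GH-treated and the E2 arrays.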

How the data were processed

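Per the labels and methods, the authors scanned 70-mer oligonucleotide slides and deposited, for each spot, foreground and background intensity medians, the percent of pixels above background and saturated, and a flag. The authors also deposited LOWESS-normalized log2 ratios to TXOX, which set the members. The methods' test (SAM) was replaced by limma.

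Intensities were background-corrected (normexp, offset 50; limma 3.58.1, R 4.3.3) and normalized by global loess per array. Spots with a scanner flag and the 554 controls or empty places were left out of the tests, and repeated probes averaged. A probe needed 3 of 4 values per group. One mean per treatment was fitted over 12 arrays with a variance trend on intensity. The fit was tested on simulated data, with calls at an adjusted p under 0.05 (limma) and no fold limit. It called 52% of probes given a log2 change of -0.6, 82% at -1, 100% at -1.5 and 40% at 0.6. The simulated arrays varied independently, unlike the arrays here, so the test does not cover shared deviations. The number of arrays limits precision. The p-values measure the spread between arrays, each comparing a treated animal with TXOX RNA, so the spread of the reference and the slide is included. The fit took arrays as independent, although same-numbered TXOXGH and TXOXE2GH arrays deviated together. Some TXOXE2 arrays also deviated with GH-treated arrays of other numbers.

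Deviations of same-numbered TXOXGH and TXOXE2GH arrays correlated by 0.31 to 0.45 (other numbers, -0.30 to 0.01), which paired them. TXOXE2 arrays were not paired by number (-0.17 to 0.21 with TXOXGH). With arrays of other numbers they correlated by up to 0.35 for TXOXGH and 0.30 for TXOXE2GH. Members, lists and tests were chosen with earlier results of these data known. Named probes were the 15 lowest with 12 values and the 2 nearest on each side of each limit. Others were named after their values were seen. Gene lists and cell type markers were not analysed here, since probes could not be named.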

Additional observations from a re-analysis of the deposited data

Results flagged for a closer look

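Of 115 groups of 4 array values of the 39 probes, 3 held a value far from the other arrays, fewer than the 1 in 20 that chance gives. For Rn30008035 the third GH array read -0.63, whereas the others lay between -1.58 and -1.42. For Rn30016239 the fourth GH array read -0.29, and the others lay between -0.94 and -0.87. For R002402_01 the first E2 array read -0.26, and the others lay between -0.09 and -0.06.

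The Alien_09 control spot printed after Rn30026869 had a mean log2 ratio of -0.73 after GH and -0.76 after E2 plus GH, outside the range of its other measured copies in both groups (0.03 to 0.50 and -0.15 to 0.40). Controls had no part in the choice of the probes.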

How the results depend on the processing

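The rule chose 39 probes. On remade ratios it chose 59 (34 shared), without background correction 41 (39 shared) and with subtracted background 122 (33 shared). With an E2 limit of 0.15 it chose 24 and with a limit of -1 it chose 2. Without members that follow another in a printed row, a choice made after seeing the data, 33 remained. Leaving out each array gave 35 to 47. Calls of lower probes ranged from 21 to 33 for GH and 25 to 35 for E2 plus GH against TXOX, 4 to 8 for GH and 2 to 9 for E2 plus GH against E2, 0 to 1 for E2 against TXOX, and 0 to 0 for E2GH against GH and for the departure. Against E2, leaving out E2 array 2 or 3 or GH array 2 gave 4 calls for GH. Leaving out E2 array 1, 2 or 3 or E2GH array 1 gave 2 for E2 plus GH, and leaving out E2GH array 3 gave 9. The replicate block over 12 arrays gave 10 calls for E2 plus GH against E2 and moved no other count of member calls by over 1.5 times. Fitting only the arrays compared gave 12 for GH and 2 for E2 plus GH, and scaling between arrays 2 for E2 plus GH. E2 against TXOX had 3 calls with loess within each printed block and 1 relative to surrounding spots, an alternative chosen after seeing the data. The causes were not tested. Other planned counts stayed within 1.5 times. No ratio to TXOX of a single probe after GH or E2 plus GH changed sign, while 127 of their calls under an alternative were lost and 25 gained. Medians on left-out arrays moved by less than their spread. Signal was low for Rn30004326, above local background on 4 of 12 arrays.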
